A study of Homo sapiens with 4 samples.

Results

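Germline genes are expressed in developing germ cells and are held silent in most other tissues, where DNA methylation at their promoters is a well known part of that silencing. The 10 genes described here are DAZL, DDX4, SYCP3, PIWIL1, TDRD1, MAEL, BRDT, STK31, SYCP1 and TDRD9. The members of the set were the 5-methylcytosine (5mC) peaks that overlapped these genes, each taken with about 5 kb on either side. The rule used position alone and no measured value. The spans added up to 787 kb of hg19 and held 89 of the 296521 peaks listed for knockout cells and 77 of the 261657 listed for control cells.

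Methylated fragments of sonicated DNA were pulled down with an antibody against 5mC and sequenced (MeDIP-seq), starting from C4-2B cells, a prostate cancer line derived from LNCaP. The knockout cells carried a guide RNA against PKCλ/ι (labelled sgPKCl/i), an atypical protein kinase C (gene PRKCI), and the control cells carried a control guide (labelled sgC, WT). Both were untreated and were harvested 48 h after plating at about 70% confluency. Each genotype had 1 input and 1 immunoprecipitated library, so no difference has a replicate check, no test between genotypes was possible, and intervals cover counting error only. Whether the cells were a clone or a pool was not given in the sources used here, and RNA was not measured, so silencing itself could not be assessed. Read totals were not listed. The genome-wide mean pileup, recovered from the peak caller's background, was 4.42 in the knockout and 2.92 in the control, so the knockout library was 1.51 times deeper and levels below are given relative to these means.

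In the germline these genes serve meiosis and the defence against transposons. PIWI proteins loaded with small RNAs (piRNAs) guide the silencing of transposons, with tudor-domain proteins as their scaffolds. The synaptonemal complex joins homologous chromosomes in meiosis. In somatic cells many germline promoters are repressed by DNA methylation and by a variant Polycomb complex (PRC1.6) whose subunits include the DNA-binding proteins E2F6 and MGA with its partner MAX.

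Promoter windows of 300 bases, running from 250 before to 50 after an annotated start, were taken from RefSeq on GRCh38.p14. All 10 genes had an entry. For 8 genes the distance from the annotated start to the far end of the gene was within 2 kb of the length that the hg19 span implies, and these windows were taken to lie at the start of the span. The entries of PIWIL1 and DDX4 and the more distant of the MAEL entries lay elsewhere and were left out, which gave 11 windows in 8 genes. GRCh38.p14 positions cannot be set beside the hg19 positions of the peaks. The 5 windows below are examples that hold the letters bound by MAX partners (CACGTG) or by E2F proteins (TTCCCGC), on either strand, at genes with strong start peaks and at SYCP1, the gene without any. DAZL, with CACGTG, and TDRD9, with TTCCCGC, had start peaks as well and are not shown. Capitals mark these letters and, where they are flanked to TCACGTGA, the longer form. The MAEL window is chr1:166989030-166989329 on the plus strand, the TDRD1 window chr10:114179037-114179336 on the plus strand, the BRDT window chr1:91949121-91949420 on the plus strand, the STK31 window chr7:23709969-23710268 on the plus strand and the SYCP1 window chr1:114854613-114854912 on the plus strand.
MAEL: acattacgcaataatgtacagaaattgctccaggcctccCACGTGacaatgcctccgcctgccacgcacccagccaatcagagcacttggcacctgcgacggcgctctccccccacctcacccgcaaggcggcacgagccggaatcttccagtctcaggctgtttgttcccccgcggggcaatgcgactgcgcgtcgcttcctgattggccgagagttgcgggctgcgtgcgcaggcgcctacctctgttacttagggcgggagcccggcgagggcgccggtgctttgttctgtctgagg
TDRD1: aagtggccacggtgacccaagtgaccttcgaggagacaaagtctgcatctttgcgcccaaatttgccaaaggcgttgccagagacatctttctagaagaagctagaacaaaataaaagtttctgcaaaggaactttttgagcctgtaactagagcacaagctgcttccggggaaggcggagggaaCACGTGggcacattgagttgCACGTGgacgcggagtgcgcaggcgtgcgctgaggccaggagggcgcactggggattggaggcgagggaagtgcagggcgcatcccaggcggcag
BRDT: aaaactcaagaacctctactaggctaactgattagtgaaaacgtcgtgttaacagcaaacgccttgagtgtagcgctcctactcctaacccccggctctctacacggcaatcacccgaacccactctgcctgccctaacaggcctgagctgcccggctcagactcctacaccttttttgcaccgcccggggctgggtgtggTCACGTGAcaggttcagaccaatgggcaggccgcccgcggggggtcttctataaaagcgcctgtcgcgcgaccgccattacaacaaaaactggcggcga
STK31: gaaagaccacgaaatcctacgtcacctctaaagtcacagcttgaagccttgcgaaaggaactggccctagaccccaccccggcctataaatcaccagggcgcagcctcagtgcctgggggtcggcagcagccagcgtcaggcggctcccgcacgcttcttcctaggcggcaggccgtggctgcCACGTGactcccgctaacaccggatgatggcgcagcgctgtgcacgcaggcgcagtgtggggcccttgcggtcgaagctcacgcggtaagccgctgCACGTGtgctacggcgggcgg
SYCP1: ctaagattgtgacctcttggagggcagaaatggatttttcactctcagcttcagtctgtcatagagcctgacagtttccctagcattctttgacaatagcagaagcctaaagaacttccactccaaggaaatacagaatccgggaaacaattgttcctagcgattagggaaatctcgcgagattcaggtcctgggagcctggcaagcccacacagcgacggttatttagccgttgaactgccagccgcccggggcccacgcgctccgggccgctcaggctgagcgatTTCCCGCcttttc

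The germline promoter windows held more CpG than the median promoter, by little at SYCP1 and TDRD1. Their CpG dinucleotides numbered 15 to 41 per window, with a median of 24, against a median of 14 (quartiles 4 and 28) over all 35114 promoter windows. The ratio of observed to expected CpG had a median of 0.87 in the germline windows and 0.58 in all windows. TDRD9 had the most CpG, at 41, and SYCP1 the fewest, at 15. CACGTG was present in 5 of the 8 genes (BRDT, MAEL, DAZL, STK31 and TDRD1), or 62.5%, against 8.78% of all genes with a promoter window. TTCCCGC was present in SYCP1 and TDRD9, against 7.82% of all genes. Either was present in 7 of the 8 genes, or 87.5%, against 15.7% of all genes. Counted by window, 9 of the 11 germline windows held either, or 81.8%, against 20.6% of the 17185 windows with at least 15 CpG. CACGTG was in 7 of the 11, or 63.6%, against 10.1% of those 17185. The longer TCACGTGA, which contains CACGTG, was found in both BRDT windows, which overlap and share the copy, and in 0.980% of all windows. In a list of 25 other germline genes, 21 had a window, and of those 4 held CACGTG, 6 held TTCCCGC and 9 held either. SYCP3 held neither in its window.

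**Figure D1:**
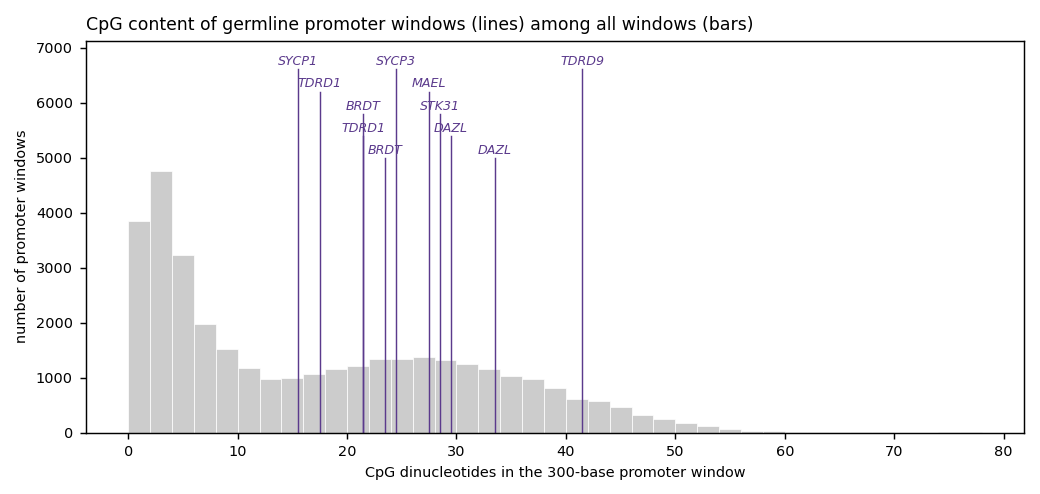
Number of CpG dinucleotides per 300-base promoter window on the x axis and number of windows on the y axis, with all 35114 windows as grey bars and the 11 windows of 8 germline genes as lines. The germline lines run from 15 CpG at SYCP1 to 41 at TDRD9, right of the all-window median of 14.

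Methylated regions were found at the start of 9 of the 10 genes in knockout cells and at the start of the same 9 genes in control cells, and SYCP1 had no peak anywhere in its span in either. The start was taken as the end of the span moved 5 kb inwards and is known to about 1 kb, and a start peak is a peak within 2 kb of it. The share of other genes with a start peak was not determined, so the 9 of 10 has no background beside it. The highest peak of the gene lay at the start in 9 of 9 genes in knockout cells and in 8 of 9 in control cells, where TDRD1 was the exception. For MAEL, DAZL and PIWIL1 this was fixed, since they had no other peak, and among the genes with peaks elsewhere the counts were 6 of 6 in the knockout and 5 of 6 in the control. The highest start peaks of the 9 genes ran from the 85.6th to the 99.5th percentile of pileup over the knockout list, with a median at the 95.3rd. In the control list they ran from the 66.2nd to the 99.5th, with a median at the 93.3rd. Each was the highest of up to 3 peaks in its window and was set against single peaks of the list, which can raise its percentile. Peaks in the rest of the spans had a median pileup of 7.46 times the mean in the knockout and 7.53 times in the control. Over the whole knockout and control lists it was 8.14 and 8.55. The CpG under the peaks was not counted, so the height of a peak is not read as methylation per CpG.

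**Figure D2:**
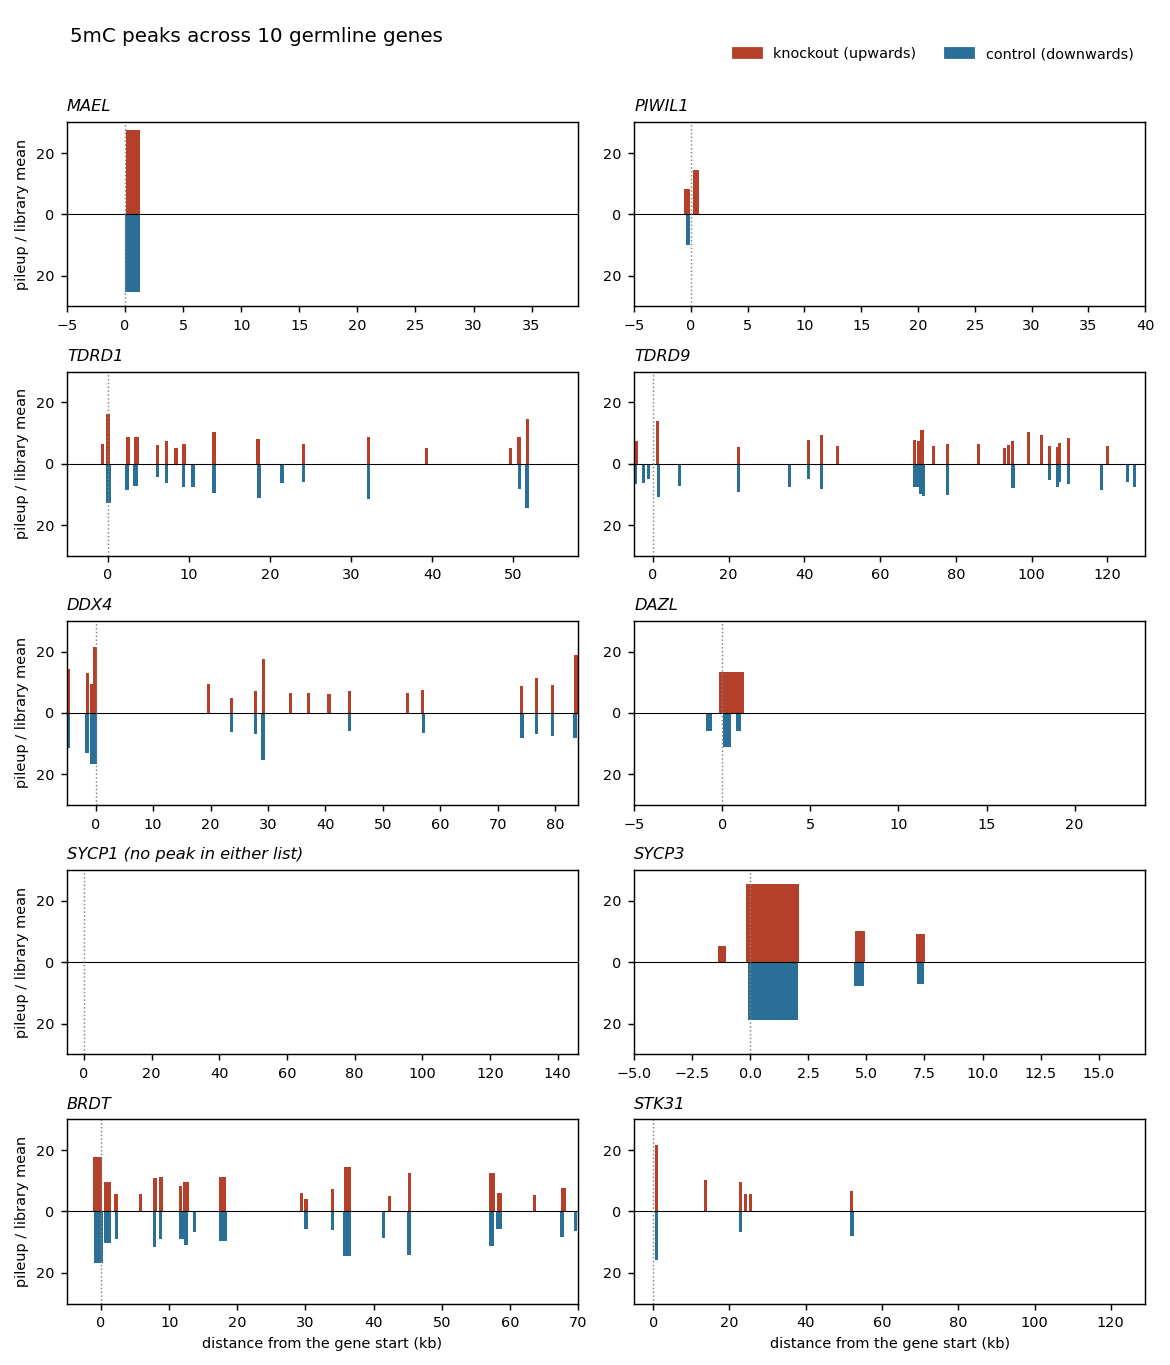
Peaks of the 10 genes by distance from the gene start in kb (x axis, in the direction of transcription), with summit pileup over the library mean on the y axis, knockout upwards and control downwards. Bars span the peak, or 0.6% of the panel where the peak is narrower. The tallest bar stands at the start in 9 genes in the knockout, and SYCP1 is empty in both.

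Among the piRNA pathway genes, MAEL, whose product is needed for transposon silencing in the male germline of mice, had the strongest start peak of the set and no other peak in its span. The peak lay at chromosome 1, 166958046 to 166959329, in knockout cells and at 166958012 to 166959299 in control cells. Its pileup was 122 in the knockout and 74 in the control, or 27.6 times (22.9 to 32.9) and 25.3 times (19.9 to 31.8) the library mean. The intervals overlapped, and the scaled log2 ratio of knockout over control was 0.12 (-0.30 to 0.56). The peak was of much the same length in each, 1284 bp in the knockout and 1288 bp in the control.

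PIWIL1, an Argonaute-family protein that binds piRNAs, had 2 peaks in knockout cells and 1 in control cells, all at the start. The peak found in both genotypes, at chromosome 12 from 130821376 to 130821908 in the knockout, had a pileup of 36 in the knockout and 29 in the control, a log2 ratio of -0.29 (-1.03 to 0.47). The knockout list held a further strong peak at 130822182 to 130822724, with a pileup of 64, a fold enrichment of 8.56 over local background and a −log10 q of 37.8. It was 14.5 times the library mean, the strongest knockout-only peak by −log10 q in the 10 genes, and its edge was 233 bp from the control peak. Taking the highest start peak of each list gave 14.5 times the mean (11.1 to 18.5) in the knockout and 9.92 times (6.64 to 14.2) in the control, and these intervals overlapped.

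TDRD1, a tudor-domain scaffold that binds PIWI proteins, had 16 peaks in the knockout and 14 in the control, which covered 6965 bp and 6000 bp of its span of 63 kb. Its start peak, at chromosome 10 from 115938773 to 115939357 in the knockout, had a pileup of 71 in the knockout and 37 in the control, or 16.0 and 12.7 times the mean. The log2 ratio was 0.34 (-0.25 to 0.96). The authors' fold enrichment ran the other way, at 5.44 in the knockout and 7.48 in the control, beside a local background of 2.77 times the mean in the knockout and 1.40 times in the control. In control cells a peak 51.8 kb past the start was higher than the start peak, with a pileup of 42, and in knockout cells the same region had 65. A knockout-only strong peak with a pileup of 28 lay upstream of the start, at -619 bp, and 182 bp from the control start peak.

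TDRD9, a tudor-domain RNA helicase of the same pathway, had 22 peaks in each genotype, the most of the set in both. Its surroundings were dense in peaks as well, with 19.7 knockout and 18.4 control peaks per 100 kb within 5 Mb on either side, against 16.3 per 100 kb in its span in each genotype. The start peak, at chromosome 14 from 104394686 to 104395683 in the knockout, had a pileup of 62 in the knockout and 32 in the control. These were 14.0 times (10.7 to 18.0) and 10.9 times (7.49 to 15.5) the mean, with a log2 ratio of 0.36 (-0.28 to 1.02). Among the highest start peaks of the genes, only that of DAZL was lower in the knockout. In the control only that of PIWIL1 was lower, with a pileup of 29, and DAZL had the same pileup of 32. The promoter window of TDRD9 had the most CpG of the set, but its position was not set beside that of the peak.

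DDX4, the germ cell RNA helicase also known as VASA, had 18 peaks in knockout cells and 12 in control cells. At its start the knockout list gave 2 adjacent peaks and the control list 1 peak across both, at chromosome 5 from 55033015 to 55034243. The highest pileup there was 95 in the knockout and 49 in the control, or 21.5 times (17.4 to 26.3) and 16.8 times (12.4 to 22.2) the mean. A pair is a knockout peak and a control peak that overlap each other and no other peak. The pair nearest the start lay upstream of it, at -1502 bp, with a pileup of 57 in the knockout and 38 in the control and a log2 ratio of -0.01 (-0.63 to 0.62), so it did not differ beyond counting error. Of the 18 knockout peaks of DDX4, 5 overlapped no control peak, against 23.9% of the whole knockout list. All 12 control peaks overlapped a knockout peak, as did all but 12.1% of the whole control list. These counts are too small to set DDX4 apart from the whole lists.

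The pair with the largest ratio of the set was also in the DDX4 span, past the far end of the gene. At 55117262 to 55118069 in the knockout the pileup was 84 in the knockout and 24 in the control, or 19.0 and 8.21 times the mean. Its log2 ratio was 1.21 (0.54 to 1.93), at the 99.8th percentile of all pairs, and the authors' fold was 12.8 in the knockout and 5.91 in the control. The pair is named as the highest of 57, and it was the 1 pair among them whose counting interval, not adjusted for their number, lay clear of 0. The interval lay above 0 in 1 and below 0 in 0 of the 57, against 2.31% above and 0.889% below, or 3.20% in either direction, of all 206556 pairs of the genome, so a count of 1 in 57 is near the background. A pair at 55110554 in the knockout was higher as well, with a pileup of 50 in the knockout and 20 in the control and a log2 ratio of 0.72 (-0.05 to 1.55). Inside the gene, the tallest peak past the start had a pileup of 77 in the knockout and 45 in the control and lay 29.2 kb from the start.

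DAZL, an RNA-binding protein that regulates translation in germ cells, had listed peaks at its start alone. The knockout list gave 1 peak of 1438 bp at chromosome 3 from 16645745 to 16647182, and the control list gave 3 short peaks, of which 2 fell inside that knockout peak. The pileup was 59 in the knockout and 32 in the highest control peak, or 13.3 times (10.2 to 17.2) and 10.9 times (7.49 to 15.5) the mean. The fold enrichment was lower in the knockout, at 3.18 against 5.33 in the control, beside a local background of 4.04 times the mean in the knockout and 1.78 times in the control. The third control peak, with a pileup of 17, was control-only and lay 412 bp from the knockout peak.

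The synaptonemal complex genes stood at opposite ends of the set. SYCP3, a protein of the chromosome axis, had the longest start region, 2261 bp in the knockout and 2182 bp in the control, at chromosome 12 from 102131910 to 102134170 in the knockout. Its pileup was 113 in the knockout and 55 in the control, or 25.5 times (21.1 to 30.7) and 18.8 times (14.2 to 24.5) the mean. The log2 ratio was 0.44 (-0.04 to 0.93). The 2 peaks further into the gene had log2 ratios of 0.37 and 0.37, so all 3 pairs of SYCP3 were above 0.

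SYCP1, the protein of the filaments that bridge the paired axes, had no listed peak in its span of 151 kb in either genotype. The stretch without a peak was longer than the gene, from 115347900 to 115632440 on chromosome 1, or 284.5 kb. Peaks were listed on both sides of it: within 500 kb on either side of the span there were 85 in the knockout and 71 in the control. Of 322481 gaps between peaks of the combined lists, 998 were at least as long, 67 of them on chromosome 1, and the median gap was 1890 bp. The lowest pileup of any listed peak was 14 in the knockout and 10 in the control. Its promoter window had 15 CpG, close to the median of all promoters, and whether methylation below the caller's threshold was present was not tested.

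BRDT, a testis bromodomain protein that binds acetylated histones, had 19 peaks in knockout cells and 18 in control cells, spread along the gene. The start peak, at chromosome 1 from 92413867 to 92415154 in the knockout, had a pileup of 79 in the knockout and 49 in the control, or 17.9 and 16.8 times the mean, and a log2 ratio of 0.09 (-0.44 to 0.64). Of its 13 pairs, 7 were above 0. A pair 2219 bp past the start was lower in the knockout, with a pileup of 25 in the knockout and 26 in the control and a log2 ratio of -0.65 (-1.51 to 0.20).

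STK31, a testis protein with a tudor domain and a kinase-like domain, had 6 peaks in the knockout and 3 in the control. The start peak, at chromosome 7 from 23749518 to 23750376 in the knockout, had a pileup of 96 in the knockout and 46 in the control, or 21.7 times (17.6 to 26.5) and 15.7 times (11.5 to 21.0) the mean. Its log2 ratio of 0.46 (-0.06 to 1.00) was the highest among the pairs nearest a start. The fold enrichment was lower in the knockout, at 8.54 against 12.0 in the control, beside a local background of 2.34 times the mean in the knockout and 1.00 times in the control. All 3 control peaks overlapped a knockout peak, as did all but 12.1% of the whole control list. Of the 6 knockout peaks, 3 overlapped no control peak, against 23.9% of the whole knockout list. All 3 had a −log10 q of at least 10, as did 32804 of the 70955 knockout-only peaks of the whole list. Such small counts do not set STK31 apart from the whole lists. The highest of the 3 STK31 peaks had a pileup of 45 at 13.7 kb from the start. The others had 25 each, with a −log10 q of 10.04.

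**Figure D3:**
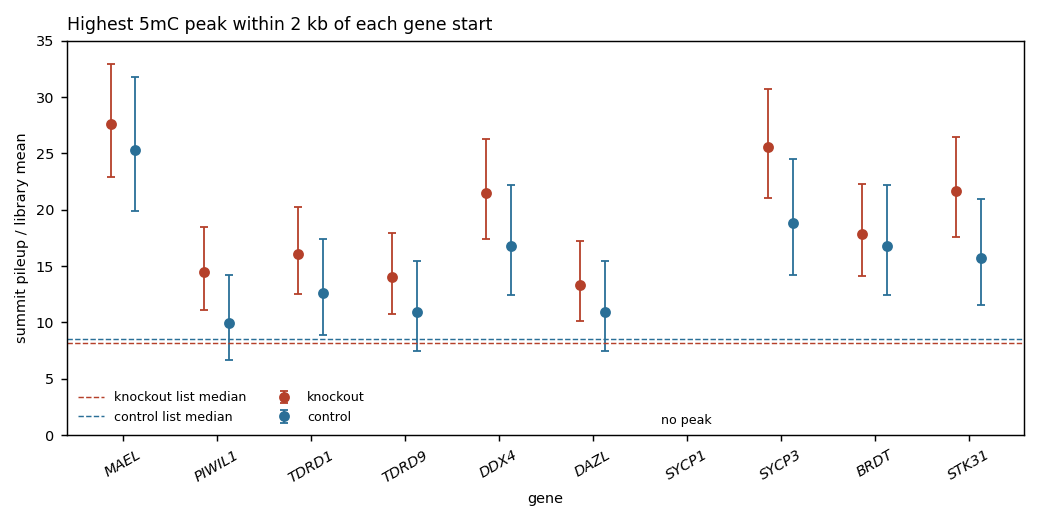
Summit pileup over the library mean (y axis) of the highest peak within 2 kb of the start of each gene (x axis), knockout left and control right, with exact 95% Poisson intervals for counting error. Dashed lines are the medians of the whole lists. The knockout point lies above the control point in 9 of 9 genes, from MAEL at 27.6 and 25.3 to DAZL at 13.3 and 10.9, and the intervals of each gene overlap. At PIWIL1 the points are peaks that do not overlap each other.

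In all 9 genes with a start peak, the highest start peak was higher in the knockout than in the control relative to the library mean, by a log2 ratio of 0.09 to 0.54 with a median of 0.36. The value of 0.54 was that of PIWIL1, where the highest peaks of the genotypes did not overlap and so are different regions, and the pair it does have was at -0.29. In the other 8 genes the highest start peaks overlapped, with log2 ratios of 0.09 to 0.46. In 0 of the 9 did the counting interval of the ratio lie clear of 0. This measure was chosen after its values were seen, and the same count was not made for other genes, so nothing is read from the direction being shared. Relative to the mean, the local background under these peaks was higher in the knockout than in the control in 8 of the 9 genes. The difference was largest at STK31, TDRD1 and DAZL. It was slight at TDRD9, at 1.146 times the mean in the knockout and 1.142 in the control, and at SYCP3, at 1.719 and 1.713. The same count was not made over all peaks, and the part of the background in the result was not tested. Among the 8 genes with a paired start peak the median log2 ratio was 0.23 by pileup and -0.08 by the authors' fold enrichment, with 6 and 4 of the 8 above 0.

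Across the whole spans, paired peaks differed little between genotypes. The 57 pairs had a median log2 ratio of 0.12, with a range from -0.77 to 1.21, beside a median of 0.04 over all 206556 pairs of the genome. Above 0 were 39 of the 57, or 68.4%, against 54.6% of all pairs. Over 1.5-fold higher in the knockout were 2 pairs, both in DDX4 and already given, against 5.14% of all pairs. Over 1.5-fold lower were 3 pairs, against 3.60% of all pairs: the BRDT pair above and 2 pairs in TDRD9. The TDRD9 pairs had a pileup of 24 in the knockout and 27 in the control, with a log2 ratio of -0.77 (-1.62 to 0.08), and of 28 in the knockout and 30 in the control, with a log2 ratio of -0.70 (-1.49 to 0.10). The shares over 1.5-fold are near the background, and the counts are too small to set the genes apart from it. The share above 0 was larger than that of all pairs. Pairs are not replicates of a genotype, and this difference was not tested.

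The median ratio also differed somewhat between the neighbourhoods of the genes. Pairs within 5 Mb had a median log2 ratio from -0.10 around MAEL to 0.14 around DDX4. The genes on chromosome 1 all lay in neighbourhoods below 0, at -0.10 for MAEL, -0.07 for BRDT and -0.07 for SYCP1, and so did TDRD1 on chromosome 10, at -0.01. Each was a median over 394 to 1394 pairs, so the quartiles of single pairs, -0.18 and 0.26, do not measure its spread. The spread of such medians over the genome was not determined. Relative to these neighbourhoods the median over the 57 pairs was 0.08.

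**Figure D4:**
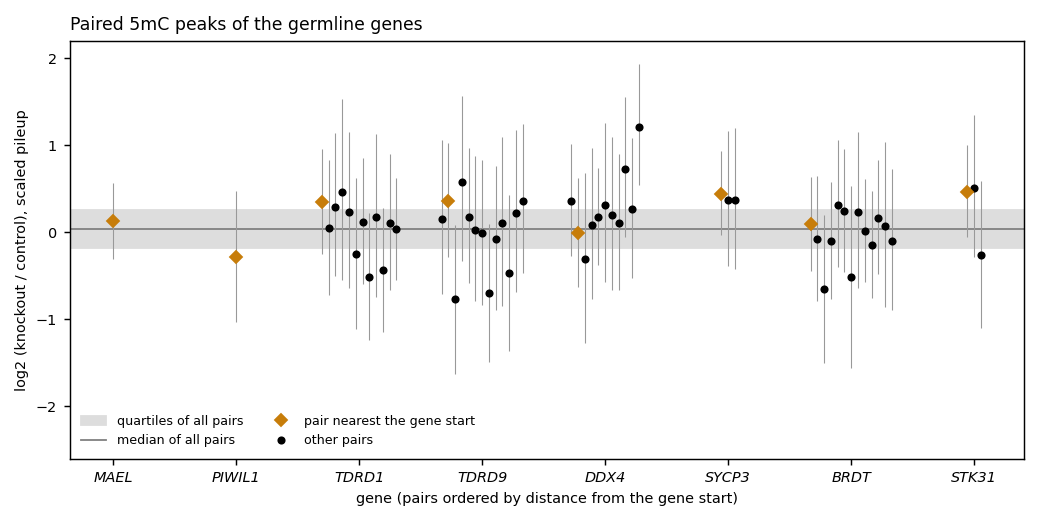
Log2 ratio of knockout over control pileup, scaled by the library means (y axis), of the 57 paired peaks by gene (x axis, ordered within a gene by distance from the start), with exact 95% intervals for counting error. Diamonds mark the pair nearest each start, the grey band the quartiles of all pairs of the genome (-0.18 and 0.26) and the line their median of 0.04. The DDX4 pair at 1.21 is the only point whose interval lies clear of 0.

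Some peaks were listed in 1 genotype only. In the knockout 26 of the 89 peaks, or 29.2% (20.1 to 39.8), overlapped no control peak, against 23.9% of the whole knockout list. In the control 13 of the 77, or 16.9% (9.31 to 27.1), overlapped no knockout peak, against 12.1% of the whole control list. Both intervals held the share of the whole list. Within 2 kb of a start, 3 of 16 knockout peaks and 2 of 14 control peaks were list-only. With equal numbers of peaks in the lists, the spans held 81 knockout and 77 control peaks, of which 21 and 16 were list-only. The whole-list shares at equal numbers were not determined, and the shares above do not apply there. These 2 counts therefore have no background beside them. The knockout library was the deeper one. The part of depth in these counts and in the peak counts of single genes was not tested.

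Peaks with a −log10 q of at least 10, called strong here, made up 74.5% of the whole knockout list and 57.0% of the whole control list. Strong list-only peaks numbered 15 of 69 strong peaks in the knockout, against 14.9% of strong peaks over the whole list. In the control they numbered 3 of 45, against 3.24%. The shares in the spans were 21.7% (12.7 to 33.3) in the knockout and 6.67% (1.40 to 18.3) in the control, and both intervals held the share of the whole list. The knockout ones were 5 in TDRD9, 4 in DDX4, 3 in STK31 and 1 each in PIWIL1, TDRD1 and BRDT. Beside the PIWIL1 peak, the strongest of these by −log10 q were in TDRD9 at 104496474 with a pileup of 42, in DDX4 at 55053399 with 41 and in STK31 at 23762502 with 45. The other DDX4 peaks had pileups of 27 to 29, the other STK31 peaks 25 and 25, the BRDT peak 26, and the other TDRD9 peaks 26 to 46. The control ones were 1 in BRDT at 92456321 with a pileup of 25 and 2 in TDRD9, at 104429881 with 22 and at 104512257 with 25. MAEL, DAZL, PIWIL1 and SYCP1 had no peak of either genotype outside the start window, and SYCP3, DDX4 and STK31 had no control-only peak.

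Per 100 kb of span, BRDT and TDRD1 held the most peaks, with 25.3 and 25.4 in the knockout and 24.0 and 22.2 in the control. Their neighbourhoods within 5 Mb held 8.57 and 9.66 in the knockout and 8.01 and 8.39 in the control. MAEL held 2.27 per 100 kb in each genotype, below its neighbourhood at 6.84 in the knockout and 6.50 in the control.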

How the data were processed

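Methylated regions were compared through 1 deposited peak list per genotype, knockout and control, assigned to samples because its name carries that sample's genotype and antibody. Per the submitters' processing notes, BWA aligned the reads to hg19, FastQC checked them and MACS2 called the peaks. The sources used here do not give tool versions, settings or how duplicates were treated. The pileup signal at each summit was deposited unscaled. Fold enrichment, as deposited, divides pileup plus 1 by local background plus 1. The −log10 p and −log10 q values were deposited by the authors for each peak within its own list and are used only to describe or filter.

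Local background was recomputed from pileup and fold, and its lowest value was taken as the library mean; the Poisson tail then gave the listed −log10 p within 0.000573. Peaks sharing at least 1 bp were called overlapping. Log2 ratios of pileup were scaled by the library means, which removes any change common to the genome. Intervals are 95%: exact Poisson for pileups and exact binomial for shares and for log2 ratios of single pairs, with none given for medians over pairs. Python 3.11.15 with scipy 1.17.1 was used, and the overlap and ratio steps were tested on simulated data. Peak numbers ran without a gap in both lists. The members and lists were chosen with earlier results of these data known. Named peaks were the peak nearest the start and the highest of each gene, pairs over 1.5-fold apart and strong list-only peaks. Other germline genes were not located among the peaks because no hg19 annotation was used here.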

Additional observations from a re-analysis of the deposited data

How the results depend on the processing

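Of 62 alternatives over 18 results, 57 stayed within set bounds and 5 left them. The bounds were 1.5 times the count or length, or the 95% counting interval of a log2 ratio. For a median over pairs they were taken from the ranked values of the pairs. Over the 8 paired starts these bounds were the lowest and the highest pair, at -0.29 and 0.46, so a median of either sign could stay within them. Some log2 ratios whose counting interval held 0 changed sign. Keeping only peaks with a −log10 q of at least 10 left 45 control peaks in the spans, 15 knockout-only peaks and 3 control-only peaks, fewer by construction. The ratio of fold enrichment in place of pileup gave a log2 ratio of -0.49 at the start of STK31 and -0.46 at the start of TDRD1, and turned the median over the 8 paired starts to -0.08. With the highest peak of each start window, an alternative chosen after seeing the data, that median was 0.36. Genes with a start peak numbered 8 or 9 in each genotype with start windows of 1 or 3 kb, a −log10 q of at least 10 or a fold of at least 5. With pileups of 13 to 122 in the spans, counting error alone spans most of the differences between genotypes. No paired analysis was possible because there was only 1 library in each group.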
